A study of Rattus norvegicus with 20 samples.

Results

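The mir-344 family is a group of microRNA (miRNA) hairpins known from rodents, and it was followed here through 15 rat tissues and serum. Its members were taken by name, as every miRBase precursor (hairpin) row beginning rno-mir-344 and every mature row beginning rno-miR-344. This gave 7 of 444 precursor rows, 3 of 577 mature rows and, under the corresponding RefSeq symbols, 5 of 388 RefSeq rows. The family was selected on its measured tissue pattern in these libraries, so its levels in brain and elsewhere are given as a description and without a test. The 20 small RNA libraries came from untreated, non-drinking male Long Evans rats at postnatal day 35. By the study's methods all tissues came from 1 cohort of 3 rats, so the libraries share animals. There were 3 libraries of a whole brain hemisphere, 3 of blood serum, and 14 of further tissues, 1 library per tissue. Each of the 14 was a pool of 3 rats, so it has no replicate and shows counting error only.

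miRNAs are cut from hairpin precursors, and a mature strand can come from the 5′ arm (5p) or the 3′ arm (3p) of the hairpin. Bases 2 to 8 of the mature strand, the seed, are the main part that pairs with target messenger RNAs. Family members that share a seed are therefore usually grouped together, and precursors with near-identical arms are difficult to tell apart by short reads.

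The mature strands are shown first, because their near-identity decides which counts can be assigned to a single hairpin. All 7 hairpins were matched in the RefSeq table of the GRCr8 assembly, together with 8 distinct mature names. Capitals mark the seed, bases 2 to 8 from the 5′ end. The table lists under the name miR-344-3p the strand of Mir344-1, a hairpin that has Mir344a-1 as a synonym.
miR-344b-1-3p: gAUAUAACcaaagcccgacugu
miR-344b-3p: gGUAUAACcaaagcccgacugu
miR-344b-5p: aGUCAGGCugcugguuauauuc
miR-344g: aGUCAGGCuccuggcaggaguc
miR-344-3p: uGAUCUAGccaaagccugaccgu
miR-344-5p: uCAGGCUCcuggcuagauuccagg
miR-344a-5p: uCAGGCUCcuggcuagauu
miR-344i: cUCUAGCCagggcuugacugca

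These 8 strands carried 6 different seeds. miR-344b-1-3p and miR-344b-3p differed by the single change A2G, counted from the 5′ end of the mature strand, and this change lies inside the seed. The seed of miR-344b-1-3p, AUAUAAC, was found in 1 other rat mature miRNA of the table, miR-410-3p, whereas GUAUAAC was found in no other. The 5p strand of the b hairpins shared its seed with miR-344g. miR-344-5p and miR-344a-5p shared a seed with each other and with miR-484, and the seeds of miR-344-3p and miR-344i were found in no other mature miRNA of the table.

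The hairpins of the 4 precursors that held reads in all 3 hemispheres are shown next, with the annotated mature arms in capitals.
Mir344b-1: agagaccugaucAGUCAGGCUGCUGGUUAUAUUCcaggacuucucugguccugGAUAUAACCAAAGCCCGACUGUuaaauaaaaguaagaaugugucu
Mir344-1: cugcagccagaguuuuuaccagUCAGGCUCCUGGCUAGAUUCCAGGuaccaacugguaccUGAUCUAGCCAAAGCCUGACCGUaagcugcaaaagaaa
Mir344a-2: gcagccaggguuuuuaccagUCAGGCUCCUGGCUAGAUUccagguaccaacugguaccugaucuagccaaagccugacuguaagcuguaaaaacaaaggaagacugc
Mir344g: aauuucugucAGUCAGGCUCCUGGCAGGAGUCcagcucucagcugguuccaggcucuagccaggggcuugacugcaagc

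On GRCr8 these hairpins lie on the minus strand of chromosome 1. Mir344b-1 is at chr1:124035661-124035758, Mir344a-2 at chr1:124655022-124655128, Mir344-1 at chr1:124718754-124718851 and Mir344g at chr1:124754942-124755020. The remaining 3 are on the same strand, with Mir344b-2 at chr1:124028505-124028575, Mir344b-3 at chr1:124044536-124044606 and Mir344i at chr1:124838110-124838208. In chromosome order the family runs Mir344b-2, Mir344b-1, Mir344b-3, Mir344a-2, Mir344-1, Mir344g and Mir344i, with 0 protein-coding genes and 8 long noncoding RNA genes annotated between its ends. The next protein-coding genes after Mir344i are Ndn, Magel2, Mkrn3 and Peg12. Ndn and Magel2 are paternally expressed imprinted genes whose human counterparts lie in the Prader-Willi region. Only Mir344b-2 overlaps another annotated gene, the long noncoding RNA gene LOC120099831. These positions are those of GRCr8, whereas the authors aligned the reads to Rn5, and no position on Rn5 is given.

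The hairpins fell into 3 sets by sequence. Mir344b-2 and Mir344b-3 were identical over all 71 bases, and Mir344b-1 matched each of them at 70 of 71 bases (98.6%). Mir344-1 and Mir344a-2 matched at 92 of 97 aligned bases (94.8%), and Mir344g and Mir344i at 68 of 79 (86.1%). The other pairs shared between 61.0% and 77.0% of their aligned bases. The strand miR-344b-5p is present without a change in all 3 b hairpins, and miR-344-5p is present in both a hairpins. The 3p arm can tell the a hairpins apart at 1 base, since the stretch of Mir344a-2 that corresponds to miR-344-3p, bases 59 to 81 of the hairpin, carries C21U and keeps the seed.
stretch of the Mir344a-2 hairpin: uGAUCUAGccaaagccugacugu

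**Figure D1:**
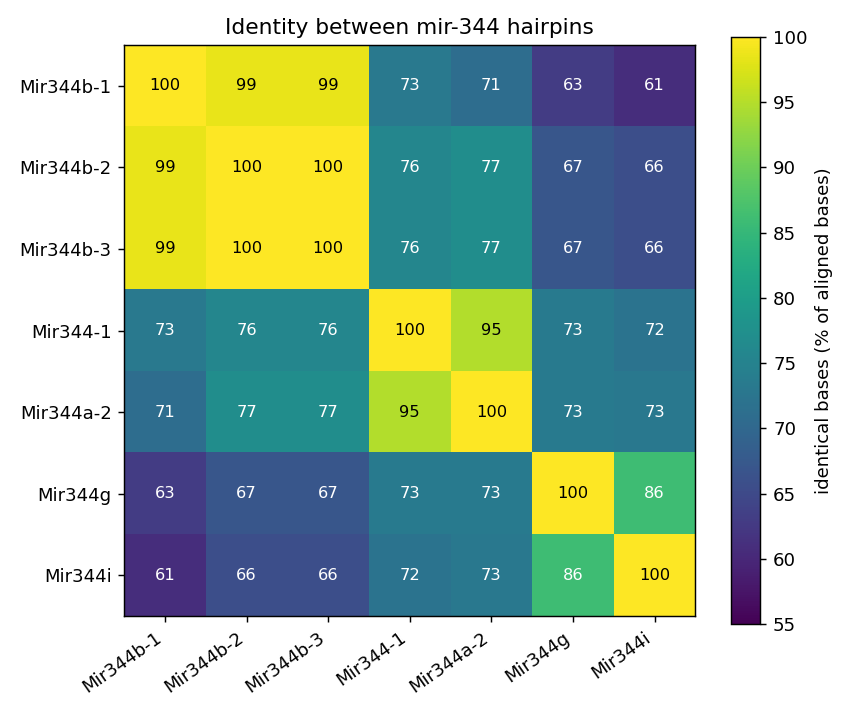
Pairwise identity of the 7 hairpins, as the percent of aligned bases that were identical (colour and printed whole percent). Mir344b-1, Mir344b-2 and Mir344b-3 form a block at 98.6% or above, and Mir344-1 with Mir344a-2 and Mir344g with Mir344i form the other close pairs.

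Read counts set the precision of every level. Levels were expressed as RPM (precursor or mature reads per 1000000 reads) of the total of the same annotation list, which held 388275 to 1204552 precursor reads in the hemispheres, 162080 to 3685761 in the pools and 7556 to 10862 in serum. A level of 3 reads, taken as the smallest detectable one, corresponded to 2.49 to 7.73 RPM in brain, 0.814 to 18.5 RPM in the pools and 276 to 397 RPM in serum. The intervals and floors cover counting error only. Among the tissue labels, that of pancreas was not borne out, since its library held as much of the liver miRNA mir-122 (14862 RPM) as the liver library (14726 RPM) and had the pancreatic miRNAs mir-216a and mir-217 at 0 reads.

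mir-344b-1 was the most abundant member in brain. Its precursor was read 130, 61 and 33 times in hemispheres 1, 2 and 3, or 107.9, 106.9 and 85.0 RPM, with a mean of 99.9 ± 13.0 RPM (SD, n = 3). It stood above every other member in each hemisphere and supplied 63.9 ± 5.57% (SD, n = 3) of the family's brain reads. Among the 444 precursors it ranked 173 by mean brain level, so the family's leading hairpin was of moderate abundance in this tissue.

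mir-344a-1 and mir-344a-2 followed at levels that could not be ordered. mir-344a-1 was at 24.9, 29.8 and 23.2 RPM in the 3 hemispheres (mean 26.0 ± 3.43), from 30, 17 and 9 reads. mir-344a-2 was at 20.8, 38.6 and 18.0 RPM (mean 25.8 ± 11.1), from 25, 22 and 7 reads. mir-344a-2 was the higher of the pair in hemisphere 2 and the lower in the others, and its SD was far larger than the difference of the means. The ratio of mir-344b-1 to mir-344a-1 was 4.33, 3.59 and 3.67 in hemispheres 1 to 3, so mir-344b-1 exceeded it in each.

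The division of reads between the 2 a hairpins depended on the annotation. In the precursor list mir-344a-2 received 43.75% to 56.4% of their summed reads in a hemisphere. In the RefSeq list Mir344a-2 received a constant 0.175% of the sum in all 4 libraries that held such reads, and Mir344-1 the rest. The sums of the pair were equal in both lists to within 0.01 reads in all 4 of these libraries. The summed a hairpins, which do not depend on that division, were at 45.7, 68.3 and 41.2 RPM, and mir-344b-1 was 2.00 ± 0.404 times as high (SD, n = 3). Separate values for mir-344a-1 and mir-344a-2 are therefore uncertain.

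The other 4 precursors rested on 13 reads in all. mir-344g, whose annotated mature strand is on the 5p arm, had 2, 2 and 1 reads in the hemispheres and a mean of 2.58 ± 0.922 RPM. mir-344b-3 had 1, 3 and 0 reads (2.03 ± 2.83 RPM) and mir-344b-2 had 2, 1 and 0 reads (1.14 ± 0.986 RPM), and since their hairpins are identical in GRCr8 these values cannot be assigned to one or the other. mir-344i had a single read, in hemisphere 1 (0.277 ± 0.479 RPM). The ranges of these 4 overlapped, and their order is not resolved at this depth. With 3 or fewer reads in any hemisphere, none of them exceeded the 3-read level in a single library.

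**Figure D2:**
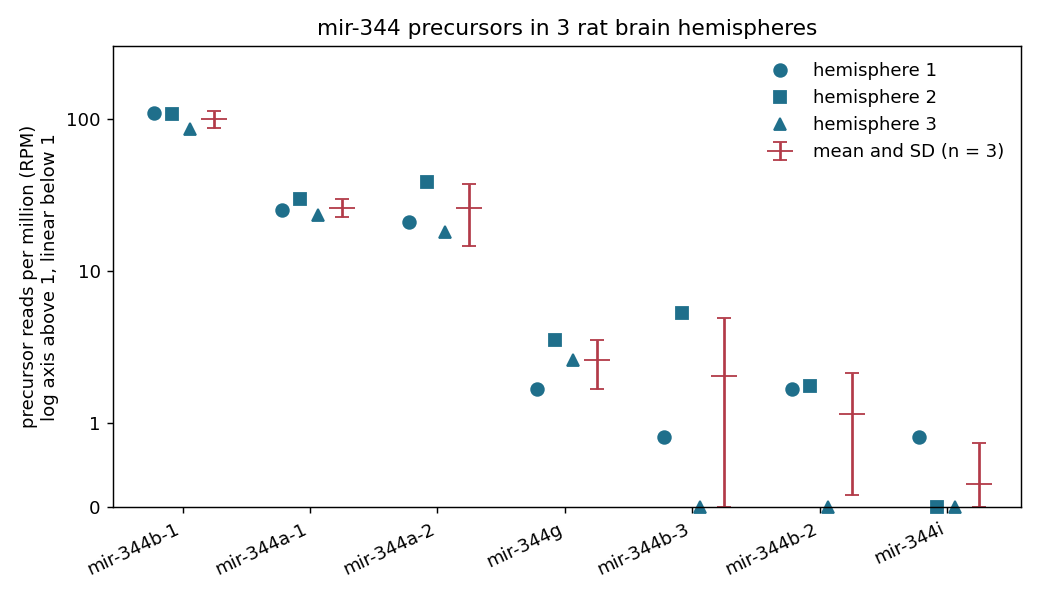
Level of each mir-344 precursor in RPM (vertical axis, logarithmic above 1 and linear below) in 3 brain hemispheres, with the mean and SD (n = 3, lower bars stopped at 0). mir-344b-1 at 85.0 to 107.9 RPM stands apart from mir-344a-1 and mir-344a-2, and the other 4 members lie near or below a few RPM.

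Among the 3 mature rows of the family, miR-344b-1-3p held most of the brain reads. These rows include no 5p strand and no miR-344b-3p, so no preference of arm is read from this. miR-344b-1-3p had 113, 53 and 29 reads, which was 86.9%, 86.9% and 87.9% of the reads of its precursor (87.2 ± 0.563%, SD, n = 3). Summed over the hemispheres it held 195 of 224 precursor reads, 87.1% with a 95% Wilson interval of 82.0% to 90.8%. This share was close to the 84.3% to 85.1% by which the whole mature list stood to the whole precursor list in the same libraries. The remaining 29 precursor reads were not divided further, because no 5p strand of the family was among the mature rows analysed here. Any of them from the 5p strand, which is the same in all b hairpins, could not be assigned to mir-344b-1 alone.

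miR-344a-3p had 27, 12 and 7 reads, and miR-344i had 1, 0 and 0. Set against mir-344a-1 alone, miR-344a-3p took 46 of 56 reads (82.1%, Wilson interval 70.2% to 90.0%). Set against both a hairpins it took 46 of 110 reads (41.8%, interval 33.0% to 51.2%), lower than the share of miR-344b-1-3p in each hemisphere. In GRCr8 only Mir344-1 of the pair has an annotated 3p strand, and Mir344a-2 has none. The summed precursor reads therefore include mir-344a-2 reads without a listed 3p strand, and the lower share is not read as a property of the a hairpins. The share of miR-344a-3p in the summed a hairpins was 49.1%, 30.8% and 43.75% in the 3 hemispheres. By mean brain level, miR-344b-1-3p ranked 164, miR-344a-3p 233 and miR-344i 449 of 577 mature rows.

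The seed that miR-344b-1-3p shares with miR-410-3p allowed their brain levels to be set side by side. miR-410-3p comes from the imprinted Dlk1-Dio3 cluster and was present at 4062 ± 764 RPM of mature reads (SD, n = 3), against 102.9 ± 12.4 RPM for miR-344b-1-3p. miR-344b-1-3p accounted for 2.46%, 2.32% and 2.70% of the reads of these 2 miRNAs in the hemispheres, so most AUAUAAC-seed reads in brain were miR-410-3p. Outside the brain miR-410-3p was highest in skeletal muscle, at 3121 RPM and 2562 reads.

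Outside the brain the family was nearly without reads. The 14 pools together held 5 family reads of 12593571 precursor reads, or 0.397 RPM (Wilson interval 0.170 to 0.930 RPM). In the hemispheres the summed family was at 159, 186 and 129 RPM (157.7 ± 28.5, SD, n = 3), from 347 reads. The lowest hemisphere lay above the highest pool, and the brain mean was 397 times the level over all pool reads, with a counting interval for the pools' reads of 170 to 930 times. In bulk tissue, fewer cells that make a miRNA and less of it per cell cannot be told apart.

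The 5 reads fell in 3 pools. mir-344b-1 had 3 reads in skeletal muscle (2.38 RPM), a ratio of brain to muscle of 42.0 with a counting interval of 14.3 to 123. It had 1 read in large intestine (0.271 RPM), a ratio of 368 with an interval of 65.0 to 2087. mir-344a-1 had 1 read in fat (2.04 RPM), a ratio of 12.7 with an interval of 2.24 to 72.0. This last ratio rests on the uncertain division of reads between the a hairpins. Their sum was at 51.7 RPM in brain (mean) and 2.04 RPM in fat. The other 11 pools held 0 reads of every member. All 5 reads were also counted as 3p strands in the mature list, with 3 of miR-344b-1-3p in skeletal muscle, 1 of it in large intestine and 1 of miR-344a-3p in fat, which was subcutaneous abdominal fat.

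Reads of neuronal miRNAs were not limited to these 3 pools. mir-124, a marker of neurons, was at 4642 RPM in brain summed over its 3 copies, at 0 reads in skeletal muscle and fat, and at 4 reads (1.09 RPM) in large intestine, with 1 read each in stomach and thymus. Summed mir-9a, a miRNA of neural cells, was at 35967 RPM in brain, 7.94 RPM in skeletal muscle, 18.4 RPM in fat and 65.7 RPM in large intestine. It was read in 12 of the 14 pools and was highest in kidney (153.7 RPM) and heart (104 RPM), which held 0 family reads and also 0 reads of mir-124. The endocrine miRNAs mir-375 and mir-7a were set beside the same pools. mir-375 was at 18328 RPM in large intestine, 196 RPM in fat and 22.2 RPM in skeletal muscle, against 305 to 357 RPM in the hemispheres. In the same order of pools, mir-7a-1 was at 1.63, 6.13 and 7.14 RPM and mir-7a-2 at 1.09, 2.04 and 0 RPM. The part of neural or endocrine cells in the 5 reads was not tested.

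**Figure D3:**
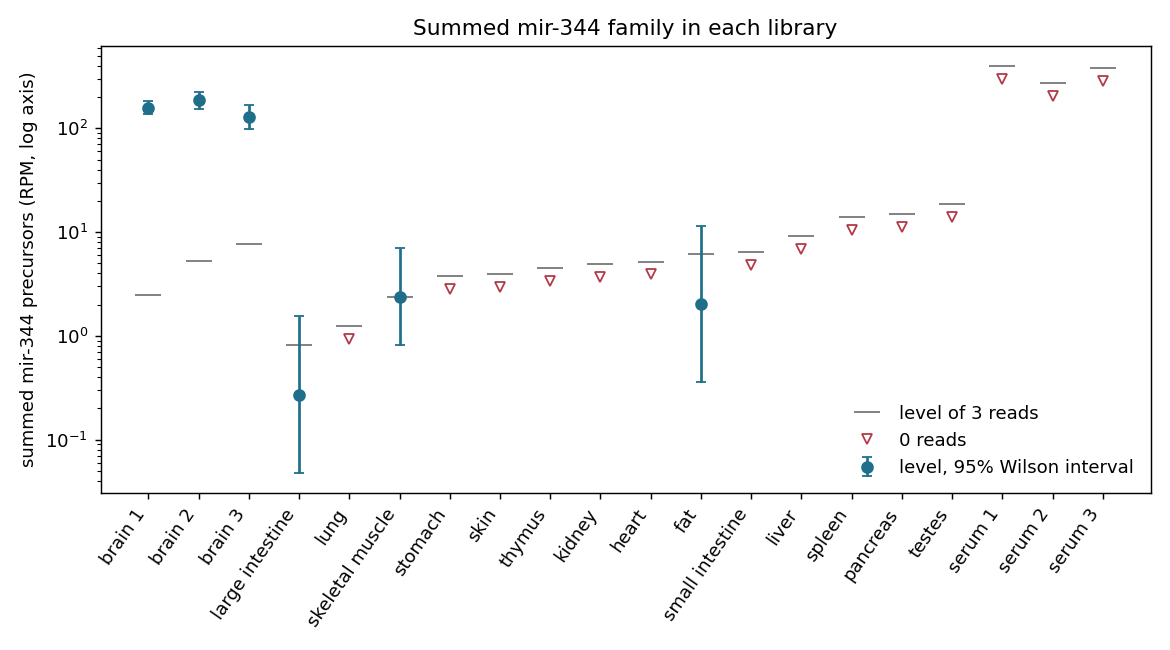
Summed mir-344 precursors in each of the 20 libraries, in RPM on a logarithmic axis, with 95% Wilson intervals, the level of 3 reads as a grey dash, and open triangles for libraries with 0 reads. The hemispheres lie at 129 to 186 RPM, all pools with reads lie below 3 RPM, and in serum even 3 reads would correspond to 276 RPM or more.

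Depth allowed the main members to be seen in the pools if they had been at their brain level. At that level mir-344b-1 would have given 16.2 (testes) to 368 (large intestine) reads per pool and 1259 in all, against 4 observed. In the 12 pools at 0 reads its brain mean was at least 5.40-fold (testes) to at least 79.7-fold (lung) higher than the 3-read floor of the library, with a median bound of 17.7-fold. For the summed a hairpins, which do not depend on how reads were divided between them, the bounds over 13 pools ran from 2.80-fold (testes) to 63.6-fold (large intestine). For the summed family, 1986 reads were expected at the brain level and the bounds in the 11 pools without a read ran from 8.52-fold to 126-fold.

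The low members could not be judged in most pools. At its brain level mir-344g would have reached 3 reads in 3 pools, mir-344b-3 in 2, mir-344b-2 in 1 and mir-344i in 0. Their 0 reads in the pools therefore set no limit under the brain level in the rest.

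Serum held 0 reads of every member in 3 libraries. Its 26348 precursor reads would have given 2.63 mir-344b-1 reads and 4.16 family reads in all at the brain level, and 1.19 to 1.71 family reads per library. The floor over the 3 libraries together was 114 RPM, above the brain mean of mir-344b-1 alone. Thus mir-344b-1 at its brain level was not detectable in serum at this depth. The brain mean of the summed family, 157.7 RPM, lay above that floor. For the family the 0 reads therefore set a limit of 114 RPM, over the 3 libraries together and not in any of them alone.

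**Figure D4:**
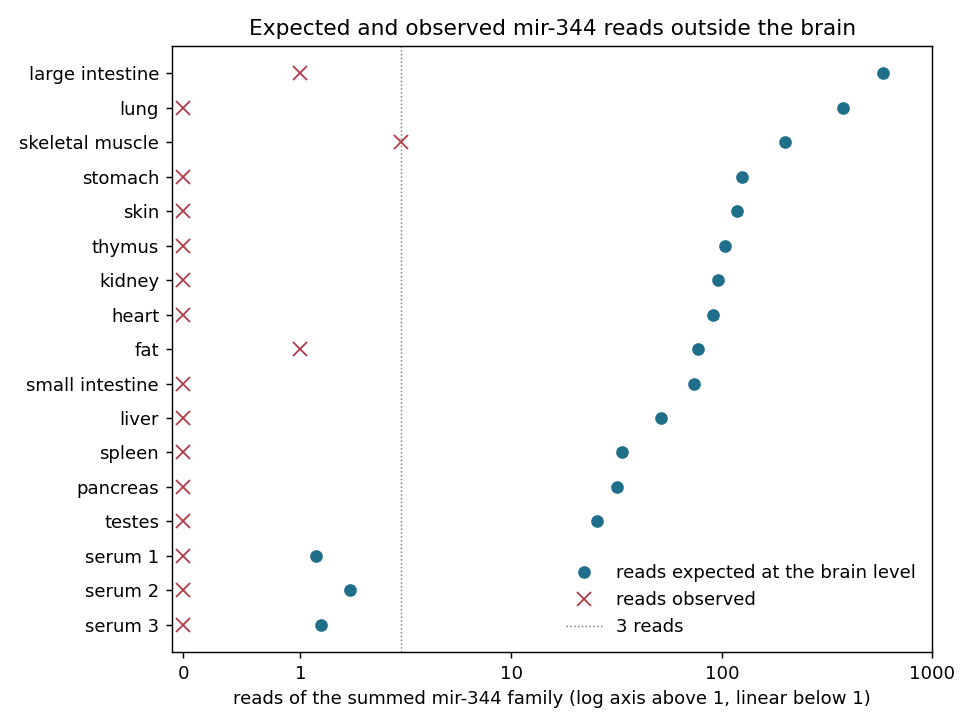
Reads of the summed family expected at the brain level (filled circles) and observed (crosses) in the 14 pools and 3 serum libraries, on an axis that is logarithmic above 1 and linear below, with a dotted line at 3 reads. Expected reads run from 25.6 to 581 in the pools, where 0 to 3 were observed, and stay under 3 in each serum library.

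As listed, the value in every hemisphere was above that in every pool for 4 of the 7 precursors, mir-344a-1, mir-344a-2, mir-344b-1 and mir-344g, and for 2 of the 3 mature rows, miR-344a-3p and miR-344b-1-3p. When a pool was taken at no less than its 3-read floor, which was highest in testes at 18.5 RPM, 2 of the 7 precursors remained, mir-344b-1 and mir-344a-1. The lowest hemisphere of mir-344a-2 (18.0 RPM) lay under the testes floor, and mir-344g (1.66 to 3.50 RPM) lay under the floors of most pools. That mir-344a-1 stayed and mir-344a-2 did not rests on the uncertain division of reads between them. The summed a hairpins, at 41.2 RPM in their lowest hemisphere, lay above every pool and floor. As listed, the pattern held for 29.7% of all 444 precursor rows and 36.3% of the 295 rows that passed a filter of 10 or more counts in 3 or more libraries, and for 21.3% of all 577 mature rows and 28.5% of the 291 filtered ones. Only mir-344b-1 and miR-344b-1-3p passed that filter. The floored form was counted for the family only, with no share over all precursor rows beside it. Since the contrast of hemispheres with pools belongs to the pattern the family was selected on, nothing is read from either count.

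Reads in every hemisphere and in no pool were listed for 2 precursors, mir-344a-2 and mir-344g, and for 0 of the 3 mature rows. For mir-344a-2 this rests on the uncertain division of reads, since RefSeq Mir344a-2 and the summed a hairpins did not meet it, because of the read in fat. For mir-344g it rests on 2, 2 and 1 reads, fewer than the floor in each hemisphere. In the background it was met by 1.13% of all precursor rows and 0% of the filtered ones, and by 3.12% of all mature rows and 0.344% of the filtered ones. Without hemisphere 3, the shallowest, mir-344b-2 and mir-344b-3 also met it, which raised the count from 2 to 4.

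On the log2(RPM + 1) scale the summed family in brain stood 7.29 above the median pool. The median pool had 0 reads, so this value is set by the constant added and is no measured fold. It was 10.61 with 0.1 RPM added and 4.05 with 10 RPM added. With 1 RPM added it was 6.63 under TMM factors and 5.97 under DESeq2 size factors, and these scalings moved the median brain-minus-pools difference of all filtered precursors by −0.97 and −1.77. The count of 4 of the 7 precursors was the same under both scalings. The share of filtered precursors with the pattern fell from 36.3% to 20.0% and 14.6%. Of the family only mir-344b-1 is among the filtered rows, and no rescaled share over all rows was computed. The count and the share are therefore not compared. No scaling can alter the count for mir-344a-2 and mir-344g, which are at 0 reads in every pool.

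Over the 15 tissues, taking the mean hemisphere as the brain value, the precursors most like the summed family were mir-3543-1 (Pearson r = 0.952), mir-124-3 (0.952), mir-138-2 (0.949), mir-764 (0.945) and mir-219b (0.942), against a median r of 0.367 over the 294 precursors compared. The points share their libraries, and 11 of the 15 family values are 0, so r is set mainly by the brain value. The choice of these 5 depended on the measure, since 3 of them were among the 5 highest with 0.1 RPM added and 0 by Spearman's rho. mir-3543-1 had a brain mean of 23.3 RPM, close to mir-344a-1 and mir-344a-2 as divided in the precursor list, and mir-764 a mean of 64.6 RPM. The pools together held 2.79e-04 estimated reads of mir-3543-1, a fraction of 1 read. Its pool values are thus estimates and no measured absence, and its place among the 5 is uncertain. The estimate for mir-219b in the pools was also fractional, at 1.43 reads. mir-124-3 was at 1522 RPM, well above any member. mir-138-2 was at 79.2 RPM and mir-219b at 246 RPM. The listed value of each of the 5 was higher in every hemisphere than in every pool, a pattern of 36.3% of the filtered precursors. They were picked for likeness to a profile that is high in brain, so nothing is read from this.

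**Figure D5:**
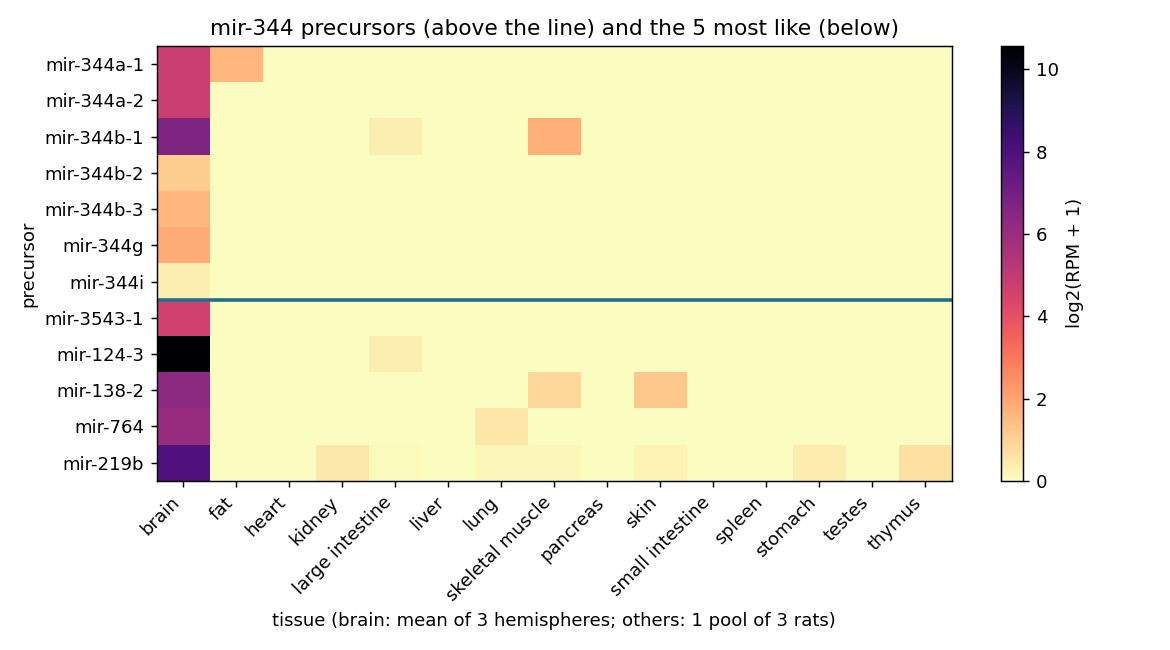
Levels as log2(RPM + 1) of the 7 mir-344 precursors (above the line) and of the 5 precursors with the most similar profile (below it), in 15 tissues. Brain is the mean of 3 hemispheres and each other tissue 1 pool; all rows are darkest in brain, and outside it the family shows colour in fat, large intestine and skeletal muscle.

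Among brain miRNAs the family was of low to middle abundance. A list of 23 precursors known from brain, including mir-124, mir-9a, mir-128 and mir-219, was found in full, and 18 of them had a brain mean above that of mir-344b-1 and 5 below it. In this list 22 of 23 had every hemisphere above every pool, all but mir-219a-1, against 36.3% of the filtered precursors. The list was made of miRNAs known from brain, so a high count is no finding. Without a read in the pools were 0 of 23. All of the list passed the filter of counts, and 0% of the filtered precursors met that rule, so nothing is read from the 0. The 5 below mir-344b-1 were mir-138-2, mir-129-2 (74.8 RPM), mir-764, mir-135a (37.7 RPM) and mir-219a-1 (20.7 RPM). Of these, mir-135a and mir-219a-1 had a mean below that of the summed a hairpins (51.7 RPM). They were not ordered against mir-344a-1 or mir-344a-2 alone, whose separate values are uncertain.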

How the data were processed

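The authors prepared libraries with a small RNA kit, trimmed bases below a quality of 20, aligned to Rn5 with Bowtie, worked in Partek among other software and quantified against miRBase 21 and RefSeq. The deposited values are estimated counts per miRNA (expected counts, not normalized) in 3 stacked lists. RPM was computed here within each list from the unrounded counts. Brain was compared with the pools on log2(RPM + 1), with Wilson intervals at 95% and floors of 3 reads. No test was run. Members and lists were chosen with earlier results of these data known. Named miRNAs are all members, those sharing a seed with a member (added after values were seen), the 5 most alike over 15 tissues, a list of 23 brain miRNAs and markers beside pools with reads. A split of reads by arm was not made, since no 5p row of the family was analysed here. Hairpins were aligned with Biopython 1.88. The rule of every hemisphere above every pool, the log2 difference and the likeness measure were run on simulated counts of miRNAs abundant in the pools. The family is nearly without reads there, so the simulation does not cover its levels. The rule of reads in no pool and the floor were not simulated. SciPy 1.17.1, NumPy 2.4.6 and pandas 2.3.3 under Python 3.11.15, Matplotlib 3.10.9 and, in R 4.3.3, edgeR 4.0.16 (TMM factors) and DESeq2 1.42.0 (size factors) were used.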

Additional observations from a re-analysis of the deposited data

How the results depend on the processing

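The summed family in brain was 157.7 RPM on precursors, 159 RPM in the RefSeq list and 127 RPM in the mature list, and ranged from 143.7 to 172.2 RPM with one hemisphere left out. Its log2 difference from the median pool was 7.29, and became 6.63 with TMM, 5.97 with DESeq2 size factors, 10.61 with 0.1 RPM added and 4.05 with 10 RPM added; without one hemisphere it was 7.17 to 7.43 and without the pancreas pool 7.29. The added constant sets this value because the median pool is at 0. The number of members with every hemisphere above every pool was 4 to 6, and that of members with reads in every hemisphere and no pool 2 to 4, with the higher counts when hemisphere 3 was left out. With each pool at no less than 3 reads, a setting chosen after seeing the data, the first count was 2. No share over all precursors was set beside that count. Of the 5 most alike precursors, 3 remained with 0.1 RPM added, 5 with 10 RPM added and 0 with Spearman's rho. The 3p share of mir-344b-1 was 86.9% to 87.4% without one hemisphere. Over single members, 37 of 56 alternatives moved the value by less than the SD of the hemispheres, 19 moved it more and 0 reversed it. The median pool of every member was at 0, so a reversal was not possible and leaving out the pancreas pool could not move the value. For mir-344b-3 and mir-344i the SD (1.35 and 0.503) was larger than the value itself (1.17 and 0.291). These counts therefore do not measure how stable the difference is. TMM and DESeq2 scaling lowered the share of filtered precursors with every hemisphere above every pool from 36.3% to 20.0% and 14.6%. Leaving out hemispheres for the share of the arms was not run, since no 5p row was analysed here, and the 3p share was used instead. No paired analysis was possible because no result comes from a test, the pools hold all animals together and every serum library held 0 family reads.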
